A study of Mus musculus with 12 samples.

Results

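The 9 genes described here encode the first steps by which a cell senses lipopolysaccharide (LPS): the co-receptors CD14 (Cd14) and MD-2 (Ly96), the adaptors MyD88 (Myd88) and TIRAP (Tirap), the kinases IRAK4, IRAK1 and IRAK2 (Irak4, Irak1, Irak2), the inhibitory family member IRAK-M (Irak3) and the ubiquitin ligase TRAF6 (Traf6). They were chosen by gene name, with earlier results of these data known, and they are 9 of the 41709 genes counted in each library. All 9 passed the filter on low counts in every comparison.

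LPS of Gram-negative bacteria is handed by CD14 to MD-2, which is bound to the outer part of Toll-like receptor 4 (TLR4), and this brings the receptor chains together. TIRAP then places MyD88 at the receptor, MyD88 gathers IRAK4 with IRAK1 and IRAK2 into a complex, and TRAF6 carries the signal on to the kinases that activate NF-κB and MAP kinases. IRAK-M enters the same complex without being an active kinase, dampens the signal, and is best known from monocytes, macrophages and dendritic cells (DCs).

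The libraries came from bone marrow-derived dendritic cells (BMDCs), that is, bone marrow cells cultured for 10 days with the growth factor GM-CSF, from which cells bearing MHCII were selected with magnetic beads, a step that can also retain other MHCII+ cells such as B cells and macrophages. All mice, the controls included, carried 2 floxed copies of Itgb2, the gene of the CD18 chain that all β2 integrins share, with exon 3 between the loxP sites. The CD18fl/fl group had no Cre recombinase. In the CD18ΔCD11c group, below called CD18CD11c cKO or cKO, Cre was driven by the CD11c promoter, so that recombination requires a cell to have switched this promoter on. Each genotype was either left untreated or given 100 ng/mL LPS for 24 h, as the labels state, and each of the 4 groups held 3 libraries. The methods describe the treatment as overnight. The floxed line was made from C57BL/6N embryonic stem cells and crossed to other C57BL/6 strains. The age and sex of the mice, and whether the 3 libraries of a group came from different animals, are not given in the sources used here, so that p-values measure only the spread between these libraries, which may in part be technical.

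Each library held between 29689149 and 34037178 gene reads, and 3 reads, taken as the floor, corresponded to between 0.0752 and 0.134 CPM (reads scaled to the normalized library size). No molecular identifiers are described for these libraries, and the floor accounts for counting error and nothing else. MHCII genes and the other DC markers were present (at least 10 of 11 at 1 CPM or more in every library). Itgb2 was at 382, 420 and 383 CPM in untreated CD18fl/fl and at 120, 162 and 190 CPM in untreated cKO BMDCs, and at 168, 171 and 268 against 114, 89.0 and 119 CPM after LPS. It was lower in every cKO library, with log2 fold changes of -1.29 ± 0.17 (SE, edgeR adjusted p = 0.00392) and -0.91 ± 0.16 (adjusted p = 0.0201) in the fit with the replicate number as a block and adjusted p-values of 0.0887 and 0.428 without it. Reads from the exons that are not deleted also count here. Replicate 3 of all groups stood apart from replicates 1 and 2. B cell markers summed to between 8.70 and 137 CPM in the 8 libraries of replicates 1 and 2 and to at most 2.55 CPM in replicate 3, whereas mast cell and basophil markers summed to at most 15.0 CPM in the former and to between 38.6 and 168 CPM in the latter. Neutrophil markers summed to 1120 CPM in replicate 1 of untreated CD18fl/fl and to at most 175 CPM in every other library. In the libraries of replicate 3 they summed to at most 13.2 CPM. Both cKO libraries of replicate 3 also lacked reads of the Y-linked genes Ddx3y, Eif2s3y and Kdm5d, which were present in the other 10 libraries. The libraries of a cKO group thus differed by more than technical spread. In pair 3 of both genotype comparisons, this difference cannot be told apart from that of genotype. Same-numbered libraries deviated together in every comparison, most of all those of replicate 3. Values from fits with this block are therefore given beside those from fits lacking it. Whether replicates 1 and 2 match by number is less clear, because replicate 1 of one group also deviated with replicate 2 of the other.

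Cd14 was by far the most abundant of the 9 transcripts when levels were compared per kilobase (kb) of exon length. Its mean ranged from 104 ± 48.6 CPM per kb (SD, n = 3) in untreated CD18fl/fl to 408 ± 205 in LPS-treated CD18fl/fl BMDCs. Tirap was at the other end, with means between 0.517 and 0.918 CPM per kb and only 52 to 203 reads per library. The other 7 genes lay in between, at means of 2.89 to 28.6 CPM per kb.

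In untreated CD18fl/fl BMDCs the order of mean levels per kb was Cd14, Myd88 (20.7), Irak2 (14.1), Irak1 (9.40), Irak4 (7.35), Ly96 (6.10), Traf6 (5.36), Irak3 (5.16) and Tirap. The libraries of Cd14 lay above, and those of Tirap below, all libraries of the other genes. Most neighbours in between overlapped: Myd88 (17.6 to 25.9) with Irak2 (11.2 to 19.5), which lay above Irak1, then Irak1 (8.43 to 9.96) with Irak4 (4.93 to 9.68), and Irak4 with Ly96, Traf6 and Irak3. After LPS the order in the same genotype was Cd14, Irak2 (26.3), Myd88 (26.3), Ly96 (23.5), Irak3 (10.0), Traf6 (8.86), Irak1 (7.63), Irak4 (3.98) and Tirap (0.679). Irak4, which stood at the fifth place without LPS, was then the lowest but for Tirap. The levels of Irak2, Myd88 and Ly96 overlapped one another, those of Ly96 and Irak3 overlapped, and so did those of Irak3, Traf6 and Irak1.

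In cKO BMDCs the order was Cd14 (113), Myd88 (20.7), Irak2 (8.98), Ly96 (8.30), Irak4 (7.78), Irak1 (5.74), Traf6 (3.79), Irak3 (2.89) and Tirap (0.719) without LPS, with overlap among all genes from Irak2 to Irak1 and among Irak1, Traf6 and Irak3. With LPS it was Cd14 (327), Ly96 (28.6), Myd88 (22.2), Irak2 (14.4), Traf6 (5.79), Irak1 (5.63), Irak3 (4.88), Irak4 (3.63) and Tirap. Here Ly96, at 12.4 to 38.9 CPM per kb, overlapped with Myd88 and Irak2, and Irak1, at 3.41 to 7.32, overlapped with Traf6, Irak3 and Irak4.

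**Figure D1:**
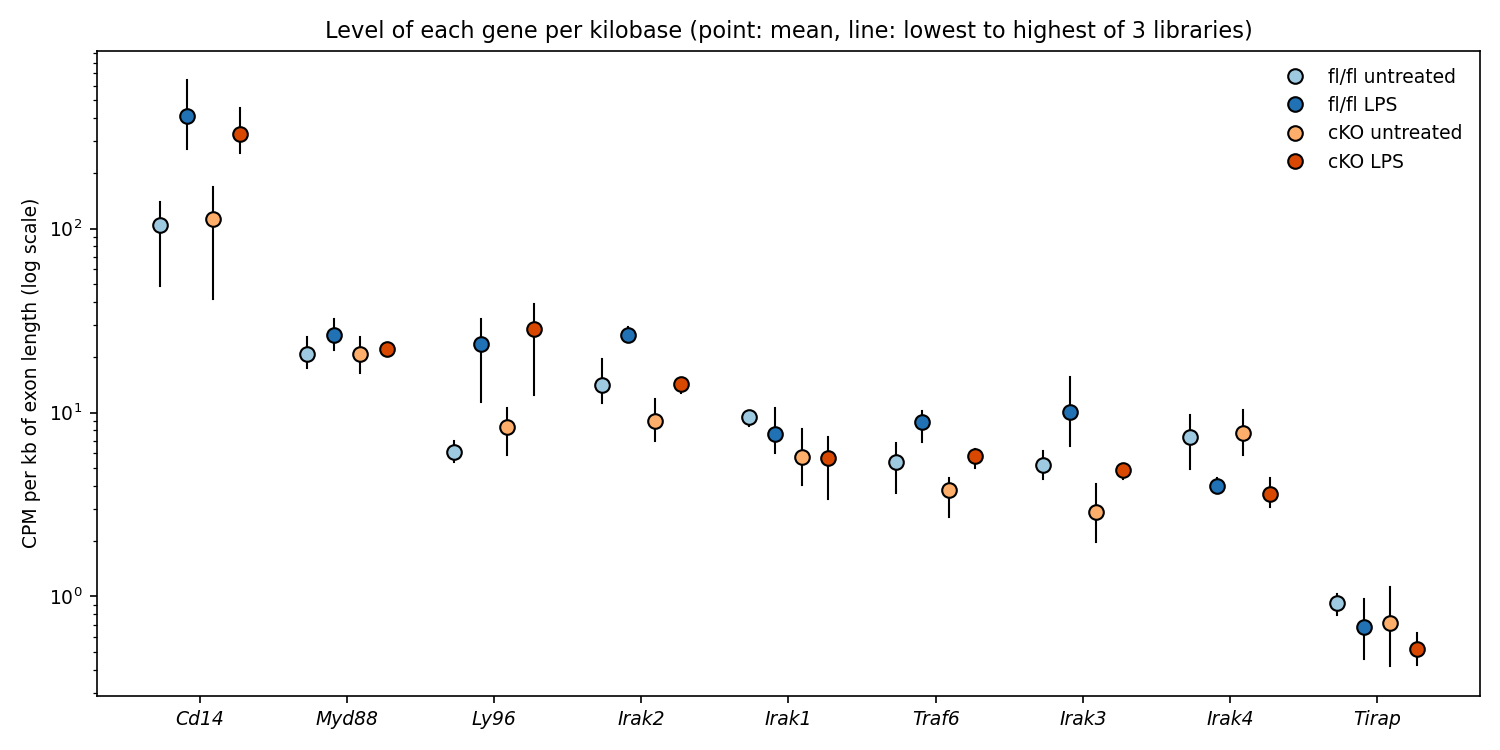
Level of each of the 9 genes in CPM per kb of exon length (log scale), with 4 points per gene for the groups, each the mean of 3 libraries with a line from the lowest to the highest library. Cd14 stands above the other genes at means of 104 to 408, Tirap below them at under 1, and the 2 LPS points of Irak4 lie below its untreated points.

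Of the 9 genes, 7 had an entry in the table of RefSeq promoters (GRCm38.p6), and Cd14 and Ly96 had none. The 250 bases before the transcription start were searched on both strands for an interferon-stimulated response element (ISRE, a pair of TTTC blocks with NN between them), an AP-1 site (TGANTCA), a cyclic AMP response element (TGACGTCA), a PU.1 site (GAGGAAGT) and the 10-base NF-κB motif. Of the 32851 promoters in that table, 2.98% held the ISRE, 6.75% the AP-1 site, 1.55% the cyclic AMP response element, 2.44% the PU.1 site and 7.25% the NF-κB motif. The 2 genes with a match are shown first, and Irak2 and Irak3 are shown because the comparisons between genotypes turn on them. Capitals mark the match, which overlapped no other motif and is a description of letters and not evidence of a factor bound there. The Myd88 sequence is the minus strand of chr9:119340019-119340268, with an ISRE 40 to 31 bases before the start. The Irak1 sequence is the minus strand of chrX:74023922-74024171, with an NF-κB motif 18 to 9 bases before the start. Irak2 is the plus strand of chr6:113638217-113638466, and the 2 starts listed for Irak3 give the minus strand of chr10:120201598-120201847 and of chr10:120202131-120202380.
Myd88: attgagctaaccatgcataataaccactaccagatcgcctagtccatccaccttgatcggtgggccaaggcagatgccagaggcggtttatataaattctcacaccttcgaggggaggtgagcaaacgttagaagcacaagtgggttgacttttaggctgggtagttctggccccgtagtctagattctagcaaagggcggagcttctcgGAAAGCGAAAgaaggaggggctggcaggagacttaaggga
Irak1: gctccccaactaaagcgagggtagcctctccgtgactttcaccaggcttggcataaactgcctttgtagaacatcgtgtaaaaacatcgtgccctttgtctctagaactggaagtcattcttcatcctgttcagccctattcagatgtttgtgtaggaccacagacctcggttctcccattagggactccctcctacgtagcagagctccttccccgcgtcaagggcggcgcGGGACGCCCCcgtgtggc
Irak2: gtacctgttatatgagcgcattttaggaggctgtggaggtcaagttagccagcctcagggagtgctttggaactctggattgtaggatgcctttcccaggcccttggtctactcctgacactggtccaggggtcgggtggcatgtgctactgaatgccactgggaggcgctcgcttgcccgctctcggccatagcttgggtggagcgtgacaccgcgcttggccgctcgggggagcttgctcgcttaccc
Irak3: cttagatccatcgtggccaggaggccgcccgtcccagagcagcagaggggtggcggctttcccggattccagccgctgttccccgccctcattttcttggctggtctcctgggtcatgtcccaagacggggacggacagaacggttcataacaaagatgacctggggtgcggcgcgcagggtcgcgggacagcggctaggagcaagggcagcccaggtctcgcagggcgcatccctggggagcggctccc
Irak3, further start: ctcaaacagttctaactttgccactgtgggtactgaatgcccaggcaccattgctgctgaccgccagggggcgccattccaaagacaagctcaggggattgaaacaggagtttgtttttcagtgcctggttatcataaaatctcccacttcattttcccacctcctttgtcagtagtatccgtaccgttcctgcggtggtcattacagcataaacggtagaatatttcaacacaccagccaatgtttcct
These windows differed in base composition, with a GC content of 51.2% for Myd88, 54.8% for Irak1, 60.0% for Irak2 and 66.4% and 47.6% for the 2 starts of Irak3, beside a median of 52.4% over all promoters of the table. The windows of Irak2, Irak3, Irak4, Tirap and Traf6 held none of the 5 motifs, which says only that these letters are not in this window.

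The first comparison asked how LPS changed the 9 transcripts in CD18-sufficient BMDCs. Cd14, Ly96, Irak2, Irak3 and Traf6 were higher in all 3 LPS libraries than in all 3 untreated ones, Irak4 was lower, and Myd88, Tirap and Irak1 overlapped. Among all 12744 genes tested, 13.6% were likewise higher and 15.9% lower without overlap, 29.5% in all. By edgeR's quasi-likelihood test with Benjamini-Hochberg adjustment, 0 of the 9 genes passed the threshold without the block (background 3.89% of genes, 2.06% higher and 1.83% lower). At an unadjusted p under 0.05, 5 of the 9 were higher and 1 lower, beside 1577 higher and 1457 lower of all 12744 genes. With the replicate block, 2 of 9 passed, Ly96 and Irak2, both higher (background 6.33% higher and 6.43% lower, 12.8% in all). DESeq2 without the block called Cd14 and Ly96 higher (background 5.12% higher and 4.36% lower, 9.48% in all), and with the block 5 genes higher and 1 lower (background 8.44% and 8.1%, 16.5% in all). The median log2 fold change of the 9 genes was 0.73, beside -0.01 over all genes.

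With replicates 1 and 2 alone, 5 genes were higher (Cd14, Ly96, Irak2, Irak3, Traf6) and 2 lower (Irak1, Irak4) at an edgeR adjusted p under 0.05. In that fit 23.2% of all genes were called higher and 24.3% lower, 47.5% in all.

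The same comparison in cKO BMDCs gave the same 5 genes higher without overlap, Cd14, Ly96, Irak2, Irak3 and Traf6, and Irak4 lower (background 14.7% higher and 13.4% lower, 28.2% in all). Again 0 of 9 passed in edgeR without the block (background 3.99%, 2.23% higher and 1.76% lower). At an unadjusted p under 0.05, 2 of the 9 were higher and 1 lower, beside 1359 higher and 1326 lower of all 12687 genes. With the block, 3 were higher, Cd14, Ly96 and Irak2, and Irak4 was lower (background 10.2% higher and 9.93% lower, 20.2% in all). DESeq2 without the block called Cd14 and Ly96 higher and Irak4 lower (background 4.04% and 3.94%, 7.98% in all), and with the block 3 higher and 1 lower (background 9.03% and 8.57%, 17.6% in all). In replicates 1 and 2 alone, edgeR called Ly96 higher and Irak4 lower (background 7.93% and 7.99%, 15.9% in all).

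**Figure D2:**
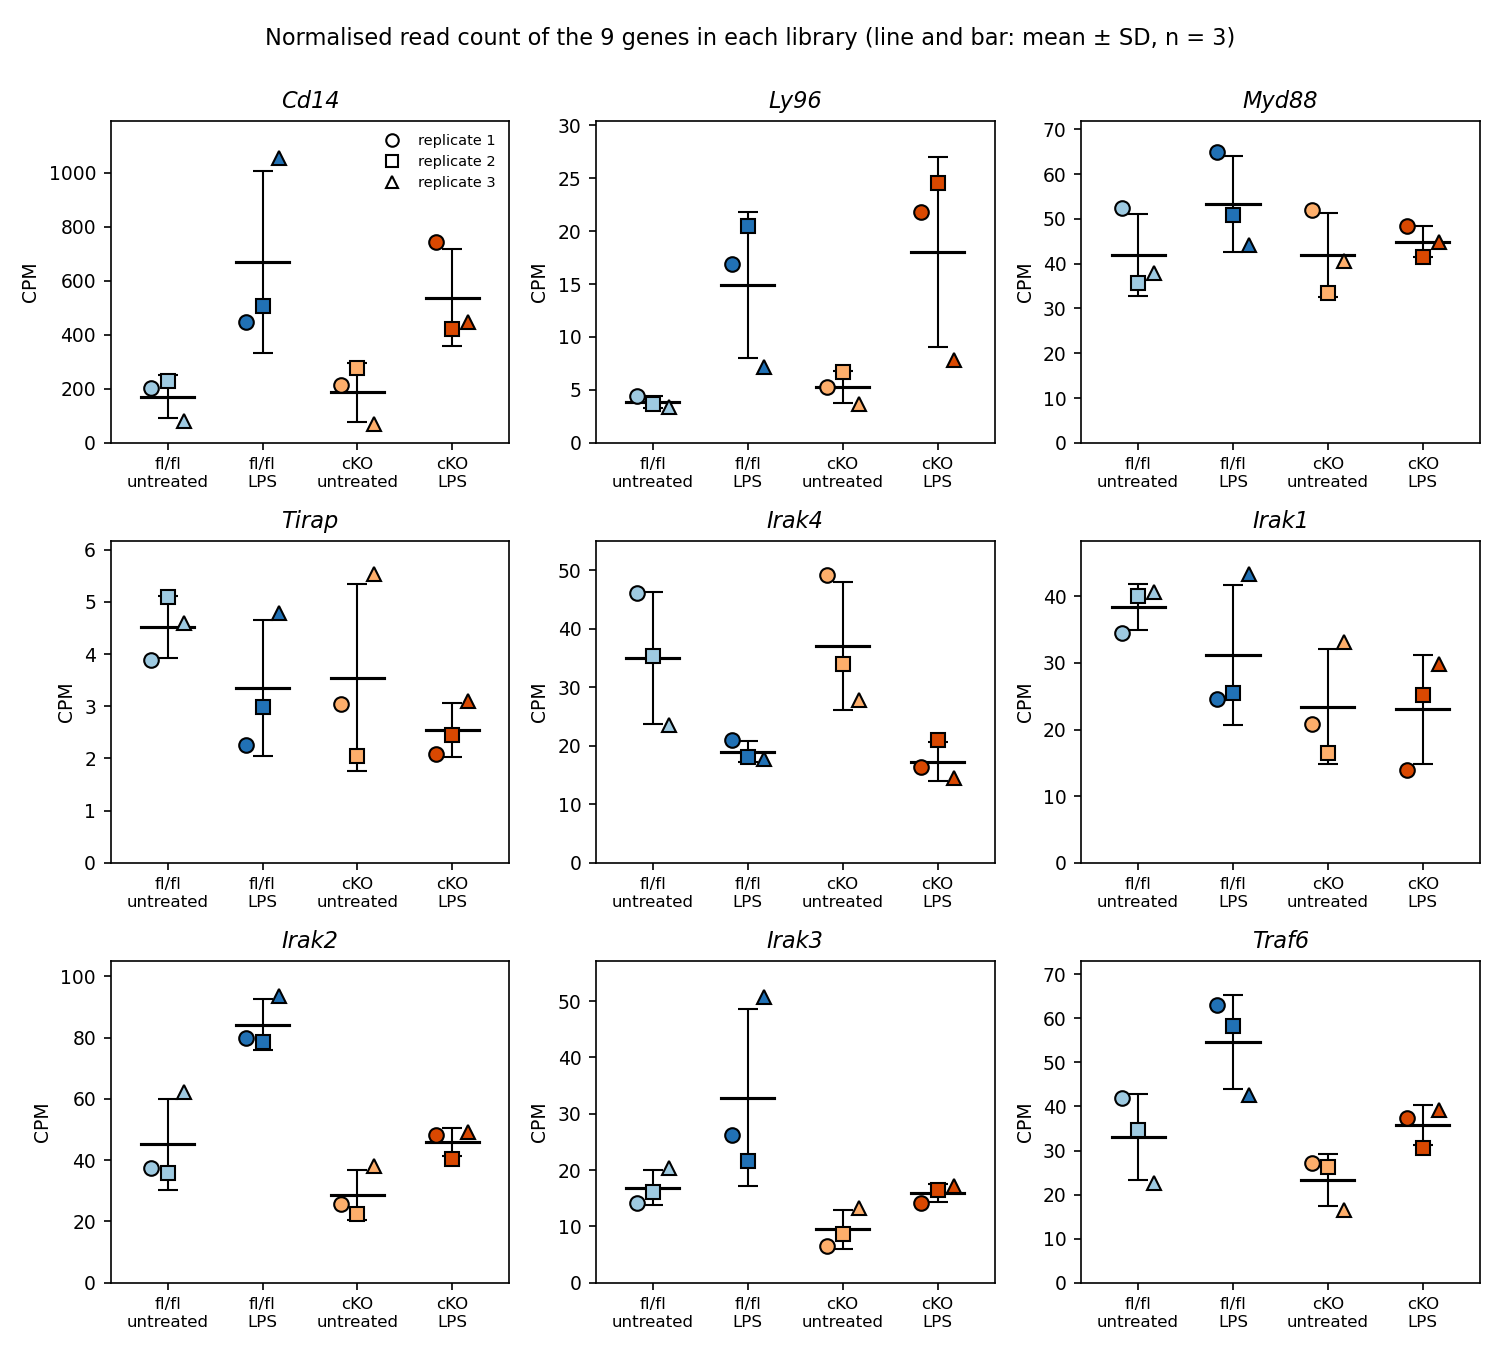
CPM of the 9 genes in each of the 12 libraries, by group, with the replicate number given by the symbol and the mean ± SD (n = 3) in black. LPS points of Cd14, Ly96, Irak2, Irak3 and Traf6 lie above, and those of Irak4 below, the untreated points of the same genotype, and triangles (replicate 3) often lie at the edge of a group.

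Cd14 encodes the membrane-anchored co-receptor that transfers LPS to MD-2 (ENSMUSG00000051439, chromosome 18, 36858120 to 36859851 in GRCm39, minus strand). In CD18fl/fl BMDCs it was at 204, 229 and 80.1 CPM without and at 447, 505 and 1055 CPM with LPS. In cKO BMDCs it was at 213, 278 and 67.6 CPM without and at 744, 421.5 and 445 CPM with LPS. Every LPS library was thus above every untreated library of both genotypes, and replicate 3 had the lowest untreated values in both genotypes and the highest LPS value in CD18fl/fl.

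The log2 fold change of Cd14 was 1.97 ± 0.52 (SE) in CD18fl/fl (edgeR adjusted p = 0.0859, and 0.0759 with the block). It was 1.48 ± 0.52 in cKO BMDCs (adjusted p = 0.159), where the block gave 1.67 ± 0.41 with an edgeR adjusted p of 0.0313. The 3 same-numbered pairs differed widely in CD18fl/fl, by 1.13, 1.14 and 3.72 on the log2 scale, so that replicates 1 and 2 alone gave 1.13. In cKO the pairs gave 1.81, 0.60 and 2.72. Cd14 is also a marker of monocytes and macrophages. All 12 genes of the macrophage and monocyte list were at 1 CPM or more in all libraries, and they summed to 9081 to 33930 CPM in untreated and 6395 to 13990 CPM in LPS-treated CD18fl/fl BMDCs, and to 16940 to 63410 and 10680 to 15660 CPM in cKO. Lyz2 (lysozyme) alone made up 77.1% to 96.1% of these sums. The other 11 genes summed to 2078 to 2833 CPM without and 1281 to 1463 CPM with LPS in CD18fl/fl, and to 2466 to 2584 and 662 to 1041 CPM in cKO. Among them, Csf1r, C1qa, C1qb, C1qc and Ccr2 were lower with LPS in both genotypes without overlap, Ly6c2 was higher in both and Adgre1 was higher in CD18fl/fl. The part of these cells in the values of Cd14 was not tested. In bulk RNA, fewer cells of a type and less RNA per cell cannot be told apart.

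Ly96 encodes MD-2, the small secreted protein that forms the LPS-binding pocket on TLR4 (ENSMUSG00000025779, chromosome 1, 16758275 to 16779835, plus strand). It rose from 4.45, 3.71 and 3.40 CPM to 16.9, 20.5 and 7.17 CPM in CD18fl/fl, and from 5.32, 6.72 and 3.71 CPM to 21.8, 24.6 and 7.82 CPM in cKO BMDCs. The groups did not overlap, and replicate 3 had the lowest LPS value in both genotypes. With the block, the log2 fold change was 1.83 ± 0.34 in CD18fl/fl (edgeR adjusted p = 0.0248) and 1.62 ± 0.26 in cKO (adjusted p = 0.00784). Without it, the changes of 1.95 ± 0.43 and 1.72 ± 0.46 had edgeR adjusted p-values of 0.0570 and 0.0876. Ly96 was the shortest of the 9 genes, with 632 bases of exon, and rested on 126 to 551 reads per library. Up to 20.7% of its reads in a library lay in introns.

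Tlr4 itself, the receptor that both proteins serve, showed no such pattern. Its values were 33.5, 29.1 and 96.5 CPM without and 11.8, 7.60 and 121 CPM with LPS in CD18fl/fl, and 25.9, 27.1 and 62.7 CPM and 17.2, 9.89 and 66.9 CPM in cKO. Replicate 3 was the highest in each group, and LPS values were below the untreated ones in replicates 1 and 2. The log2 fold changes with the block were -1.04 ± 0.47 (edgeR adjusted p = 0.185) and -0.68 ± 0.32 (adjusted p = 0.179). Without replicate 3, Tlr4 fell by 1.70 ± 0.23 in CD18fl/fl (edgeR adjusted p = 0.000111), and the change in cKO was -1.06 ± 0.32 (adjusted p = 0.0681).

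Myd88 encodes the adaptor that almost all Toll-like receptors use (ENSMUSG00000032508, chromosome 9, 119165000 to 119170477, minus strand), and its ISRE-bearing promoter window is printed above. It was at 52.5, 35.6 and 38.0 CPM without and at 65.0, 50.9 and 44.1 CPM with LPS in CD18fl/fl, and at 52.0, 33.5 and 40.6 CPM and 48.4, 41.5 and 44.9 CPM in cKO. All groups overlapped and the means of the 4 groups lay between 42.0 and 53.3 CPM. The log2 fold change with LPS was 0.35 ± 0.26 in CD18fl/fl (edgeR adjusted p = 0.457) and 0.06 ± 0.24 in cKO (adjusted p = 0.922), without a call under either fit. The neighbouring gene Acaa1a lies on the opposite strand and shares 628 exonic bases with Myd88, 16.2% of the exon bases that the GENCODE annotation gives for Myd88. Whether the counting used strand is not given in the sources used here, so reads from both genes cannot be told apart there.

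Tirap, which encodes the adaptor that links MyD88 to TLR2 and TLR4 (ENSMUSG00000032041, chromosome 9, 35095847 to 35111587, minus strand), was low in all libraries, at 2.05 to 5.53 CPM. Without LPS it was at 3.89, 5.09 and 4.59 CPM in CD18fl/fl and at 3.05, 2.05 and 5.53 CPM in cKO, and with LPS at 2.26, 2.98 and 4.80 CPM and at 2.09, 2.45 and 3.10 CPM. The groups overlapped in all 4 comparisons. By library, 73.1% to 100% of the Tirap reads were unique, and up to 37.1% lay in introns. The log2 fold changes with LPS were -0.43 ± 0.41 and -0.51 ± 0.52, with edgeR adjusted p-values of 0.566 and 0.635.

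Irak4 encodes the kinase that MyD88 binds first and that starts the kinase cascade (ENSMUSG00000059883, chromosome 15, 94441524 to 94479696, plus strand). It went from 46.1, 35.3 and 23.5 CPM to 21.0, 18.1 and 17.7 CPM in CD18fl/fl, and from 49.2, 34.0 and 27.9 CPM to 16.3, 20.9 and 14.5 CPM in cKO BMDCs. All 6 LPS libraries were below all 6 untreated ones, and the LPS libraries lay close together. With the block, Irak4 fell by 1.12 ± 0.23 on the log2 scale in cKO (edgeR adjusted p = 0.0170), a 2.17-fold difference, whereas the change of -0.83 ± 0.24 in CD18fl/fl had an adjusted p of 0.0729. Without the block, the adjusted p-values of edgeR were 0.139 in CD18fl/fl and 0.0738 in cKO. Irak4 shares 647 exonic bases (10.3% of its exons in GENCODE) with Twf1 on the opposite strand.

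Irak1 encodes the kinase that IRAK4 phosphorylates and that binds TRAF6 (ENSMUSG00000031392, chromosome X, 73057520 to 73067524, minus strand). In CD18fl/fl it was at 34.4, 40.0 and 40.7 CPM without and at 24.6, 25.6 and 43.3 CPM with LPS, and in cKO at 20.8, 16.4 and 33.1 CPM without and at 13.9, 25.2 and 29.9 CPM with LPS. Replicates 1 and 2 of CD18fl/fl were lower with LPS and replicate 3 was not, so the groups overlapped in both genotypes. The log2 fold changes were -0.29 ± 0.28 (edgeR adjusted p = 0.566) and -0.06 ± 0.39 (adjusted p = 0.952). In replicates 1 and 2 alone, the change in CD18fl/fl was -0.58 with an adjusted p of 0.0172.

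Irak2 encodes the kinase that sustains signaling after IRAK1 (ENSMUSG00000060477, chromosome 6, 113615428 to 113671987, plus strand). It was at 37.4, 35.8 and 62.2 CPM without and at 80.0, 78.7 and 93.7 CPM with LPS in CD18fl/fl, and at 25.6, 22.5 and 38.0 CPM and 48.1, 40.6 and 49.2 CPM in cKO BMDCs. Replicate 3 was the highest in every group, and the groups did not overlap. With the block, Irak2 rose by 0.95 ± 0.22 in CD18fl/fl (edgeR adjusted p = 0.0441), a 1.93-fold difference, and by 0.67 ± 0.19 in cKO (adjusted p = 0.0478), a 1.59-fold difference. Without the block the adjusted p-values were 0.117 and 0.242 in edgeR.

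Irak3 encodes IRAK-M, the family member that restrains the pathway (ENSMUSG00000020227, chromosome 10, 119977553 to 120038035, minus strand). It was at 14.1, 16.2 and 20.3 CPM without and at 26.3, 21.6 and 50.7 CPM with LPS in CD18fl/fl, and at 6.45, 8.58 and 13.4 CPM and 14.2, 16.5 and 17.2 CPM in cKO. The groups did not overlap in either genotype, and replicate 3 was again highest in every group. The log2 fold changes with the block were 0.88 ± 0.26 (edgeR adjusted p = 0.0729) and 0.77 ± 0.23 (adjusted p = 0.0586). Tmbim4 on the opposite strand shares 192 exonic bases with Irak3 (3.39% of the exons of Irak3 in GENCODE).

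Traf6 encodes the ubiquitin ligase at the end of this chain (ENSMUSG00000027164, chromosome 2, 101508774 to 101532014, plus strand). It was at 42.0, 34.6 and 22.5 CPM without and at 62.9, 58.4 and 42.7 CPM with LPS in CD18fl/fl, and at 27.3, 26.3 and 16.6 CPM and 37.3, 30.6 and 39.3 CPM in cKO. The groups did not overlap, in CD18fl/fl by a narrow margin between 42.0 and 42.7 CPM, and all same-numbered pairs were higher with LPS. The log2 fold changes with the block were 0.76 ± 0.21 (edgeR adjusted p = 0.0646) and 0.59 ± 0.26 (adjusted p = 0.154).

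The second question was whether loss of CD18 altered these transcripts. In untreated BMDCs, Irak1 and Irak3 were lower in all cKO than in all CD18fl/fl libraries, and 0 genes were higher, where 13.5% of all genes were lower and 11.5% higher without overlap, 25% in all. By edgeR without the block 0 of 9 genes were called, as was the case for all genes (background 0%). At an unadjusted p under 0.05, 1 of the 9 was lower, beside 1395 higher and 764 lower of all 12876 genes. DESeq2 without the block gave an adjusted p to 7 of the 9 genes, all but Ly96 and Tirap, and called 0 of these (background 2.61% higher and 0.25% lower, 2.86% in all). At an unadjusted p under 0.05 it gave 0 of the 9, beside 1474 higher and 710 lower of 18793 genes. With the block, Irak1, Irak2 and Irak3 were lower in cKO BMDCs by edgeR (background 8.16% lower and 12.1% higher, 20.2% in all), and DESeq2 also called 3 lower (background 6.69% lower and 9.47% higher, 16.2% in all). In replicates 1 and 2 alone, edgeR called Irak1, lower, and no other of the 9 (background 2.67% lower and 7.91% higher, 10.6% in all).

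After LPS, Irak2, Irak3 and Traf6 were lower in all cKO libraries than in all CD18fl/fl libraries (background 8.62% lower and 9.25% higher, 17.9% in all). Again 0 of 9 genes were called without the block in edgeR (background 0%) or in DESeq2 (background 0.74% higher and 0.0472% lower, 0.787% in all). At an unadjusted p under 0.05, edgeR gave 3 of the 9, all lower, beside 770 higher and 442 lower of all 12441 genes. DESeq2 gave 2 of the 9 at that level, both lower, beside 951 higher and 313 lower of 19049 genes. With the block, Irak2 and Irak3 were lower by edgeR (background 3.16% lower and 6.98% higher, 10.1% in all), and DESeq2 also called 2 lower (background 3.24% lower and 6.57% higher, 9.81% in all). In replicates 1 and 2 alone, 0 of the 9 were called (background 0.977% lower and 3.24% higher, 4.22% in all), with edgeR adjusted p-values of 0.0504 for Irak2 and 0.120 for Irak3. The control libraries of these comparisons also enter the comparisons of LPS above.

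Irak2 was 1.49-fold lower in untreated cKO than in untreated CD18fl/fl BMDCs with the block, at a log2 fold change of -0.58 ± 0.14 (edgeR adjusted p = 0.0257). The same-numbered pairs gave -0.55, -0.67 and -0.71, although the groups overlapped because replicate 3 of cKO, at 38.0 CPM, stood above replicates 1 and 2 of CD18fl/fl, at 37.4 and 35.8 CPM. After LPS it was 1.85-fold lower, at -0.89 ± 0.15 (adjusted p = 0.0156), with pairs at -0.73, -0.96 and -0.93 and no overlap between 40.6 to 49.2 and 78.7 to 93.7 CPM. LPS-treated cKO BMDCs were thus at 45.9 ± 4.70 CPM (SD, n = 3), near the 45.2 ± 14.8 CPM of untreated CD18fl/fl BMDCs. Without the block the edgeR adjusted p-values were 0.371 in untreated and 0.350 in LPS-treated BMDCs.

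Irak3 gave log2 fold changes of -0.81 ± 0.20 in untreated (edgeR adjusted p = 0.0272) and -0.96 ± 0.23 in LPS-treated BMDCs (adjusted p = 0.0455) with the block, and adjusted p-values of 0.287 and 0.445 without it. With an additional offset for exon length, the latter value was 0.0531. All 3 pairs were lower in cKO in both states, by 0.60 to 1.13 without and by 0.39 to 1.56 on the log2 scale with LPS. Adgre1 (F4/80), a macrophage marker, was also lower, at 408, 490 and 438 CPM in untreated CD18fl/fl against 233, 215 and 358 CPM in cKO, and at 645, 632 and 557 against 263, 308 and 324 CPM after LPS. Cd68 was lower as well, at 246, 304 and 313 against 93.1, 194 and 185 CPM without and at 226, 292 and 253 against 82.8, 155 and 128 CPM with LPS. Of the 12 genes of the macrophage and monocyte list, these 2 were lower and C1qb was higher in cKO without overlap in untreated BMDCs, and these 2 and Csf1r were lower after LPS, while the other 9 overlapped in each state. The sums over all 12 genes, which are mostly Lyz2, overlapped between the genotypes in both states. Those over the other 11 overlapped without LPS and were lower in all cKO libraries with LPS, as given above. The part of these cells in the values of Irak3 was not tested.

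Irak1 had a log2 fold change of -0.70 ± 0.21 in untreated BMDCs with the block (edgeR adjusted p = 0.0497), just under the threshold, and of -0.65 ± 0.28 without it (adjusted p = 0.310). With the length offset added to the block, its adjusted p was 0.0918. In LPS-treated BMDCs the change was -0.47 ± 0.19 (adjusted p = 0.162). Irak1 lies on the X chromosome, and its highest cKO values, 33.1 and 29.9 CPM, were those of replicate 3, in which Y-linked transcripts were at or near 0. Replicate 3 was also the highest in CD18fl/fl, at 40.7 CPM without and 43.3 CPM with LPS, where Y-linked transcripts were present. In replicates 1 and 2 alone, where all libraries held Y-linked transcripts, untreated cKO BMDCs differed by -0.94 (edgeR adjusted p = 0.0370). The part of the sex of the mice in the values of Irak1 was not tested.

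Traf6 was lower in all same-numbered pairs, at -0.42 ± 0.15 (edgeR adjusted p = 0.0837) in untreated and -0.61 ± 0.20 (adjusted p = 0.0922) in LPS-treated BMDCs with the block. The offset for exon length, of which Traf6 has the most among the 9 genes (6169 bases), reduced these values to -0.15 and -0.42. Irak4 differed by 0.16 ± 0.15 and -0.16 ± 0.18 (adjusted p = 0.461 and 0.619 in edgeR), and Myd88 by 0.06 ± 0.14 and -0.24 ± 0.16 (adjusted p = 0.780 and 0.370). Tirap gave -0.39 ± 0.39 and -0.36 ± 0.38 (adjusted p = 0.518 and 0.588). The groups of Irak4, Myd88 and Tirap overlapped, and these p-values do not show that the genotypes were equal.

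The co-receptors did not pass the test between the genotypes either. Cd14 differed by 0.10 ± 0.15 in untreated (edgeR adjusted p = 0.667) and by -0.27 ± 0.33 in LPS-treated BMDCs (adjusted p = 0.650) with the block. Its 3 pairs after LPS were at 0.74, -0.26 and -1.24, and replicates 1 and 2 alone gave 0.28 in place of -0.34 without the block. Ly96 gave 0.48 ± 0.31 (adjusted p = 0.296) and 0.24 ± 0.17 (adjusted p = 0.393), with all 3 pairs higher in both states. These signs turned to -0.34 and -0.41 for Ly96, and to -0.22 for Cd14 in untreated BMDCs, when the offset for exon length was added to the block.

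**Figure D3:**
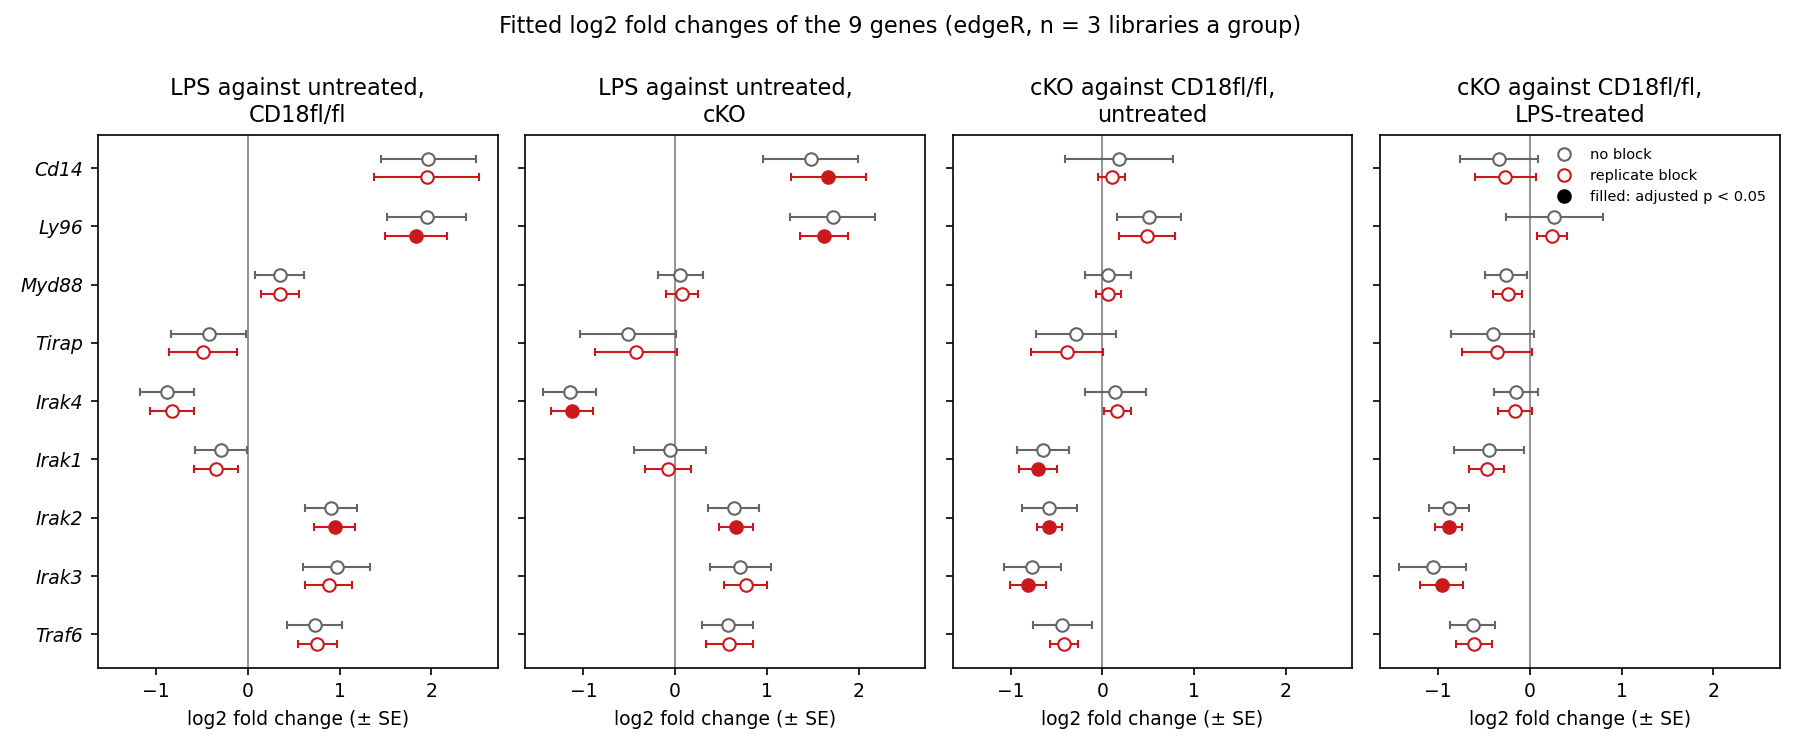
Log2 fold changes (± SE) of the 9 genes in the 4 comparisons, fitted by edgeR without (grey) and with (red) the replicate block from 3 libraries a group, with filled points for an adjusted p under 0.05. No grey point is filled, and the red filled points are Ly96 and Irak2 with LPS in both genotypes, Cd14 and Irak4 with LPS in cKO, Irak1, Irak2 and Irak3 between untreated genotypes, and Irak2 and Irak3 between LPS-treated genotypes.

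Whether LPS acted differently in the 2 genotypes was tested by the interaction of both on all 12 libraries. None of the 9 genes was called by edgeR (background 0%) or DESeq2 (background 0.00485%, and 0.63% with the block), 0 of them had an unadjusted p under 0.05, and the lowest unadjusted p among the 9 in edgeR's fit was 0.494 without and 0.340 with the block. Of all 13752 genes, 48 with a positive and 49 with a negative difference were at that level in edgeR without the block. For the 9 genes, the log2 differences between the LPS effects lay between -0.43 and 0.28, with standard errors of 0.34 to 0.78. For Irak2 the value was -0.22 ± 0.38 and for Cd14 -0.43 ± 0.78.

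Because the kinases moved in opposite directions with LPS, their ratios within a library were also taken from levels per kb, a choice made after the values had been seen and therefore not tested. Such ratios do not depend on library scaling. Irak2 to Irak4 was 1.21, 1.51 and 3.95 in untreated and 5.66, 6.46 and 7.89 in LPS-treated CD18fl/fl BMDCs. In cKO BMDCs it was 0.775, 0.983 and 2.03 without and 4.39, 2.88 and 5.04 with LPS. The ratio was higher with LPS in both genotypes without overlap, and after LPS it was lower in all cKO than in all CD18fl/fl libraries, whereas the untreated groups of both genotypes overlapped. Irak3 to Irak4 went from 0.447, 0.666 and 1.26 to 1.82, 1.73 and 4.17 in CD18fl/fl, and from 0.191, 0.367 and 0.697 to 1.27, 1.15 and 1.72 in cKO. Replicate 3 had the highest of these 2 ratios in every group. Irak2 to Irak1, taken in the same way, was 1.39, 1.14 and 1.96 without and 4.16, 3.94 and 2.77 with LPS in CD18fl/fl, and 1.58, 1.75 and 1.47 without and 4.42, 2.05 and 2.10 with LPS in cKO. It was also higher with LPS in both genotypes without overlap, but it overlapped between the genotypes in both states, with the highest value in LPS-treated cKO BMDCs. A further ratio, Cd14 to Ly96, overlapped in all 4 comparisons.

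**Figure D4:**
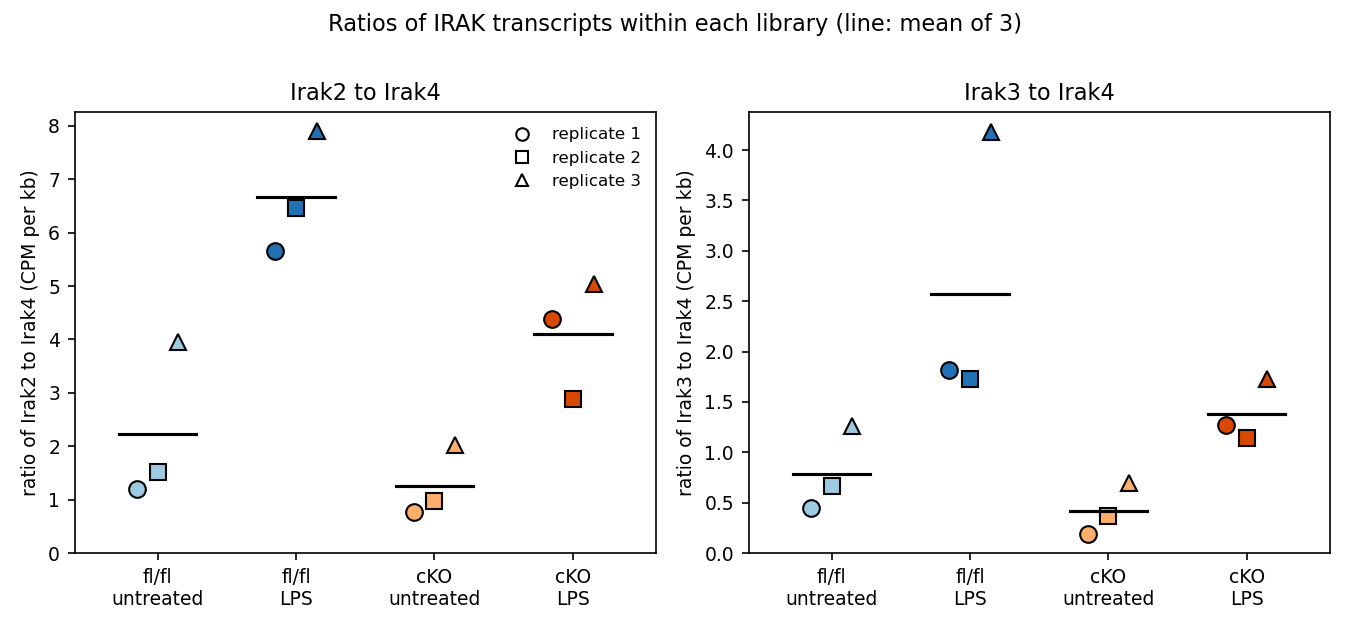
Ratios of Irak2 to Irak4 and of Irak3 to Irak4 in each library, from CPM per kb, with the mean of 3 as a line and the replicate number given by the symbol. With LPS the Irak2 to Irak4 ratio lies at 5.66 to 7.89 in CD18fl/fl and at 2.88 to 5.04 in cKO BMDCs, above the untreated values of the same genotype.

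The 9 genes were set beside 67 other genes of the pathway. In CD18fl/fl BMDCs 65 of these passed the filter, and with the replicate block 6 were higher and 4 lower with LPS by edgeR, or 9.23% and 6.15%, beside 6.33% and 6.43% of all genes. Without the block, 1 was lower (1.54%, beside 1.83%). In cKO BMDCs, 9 were higher and 8 lower of 64 with the block, or 14.1% and 12.5%, beside 10.2% and 9.93% of all genes, and without it 2 were lower (3.12%, beside 1.76%). The median log2 fold changes with the block were 0.02 and 0.03, against 0.76 and 0.59 for the 9 genes. Among the other genes for LPS recognition, Ly86 (MD-1, which pairs with the TLR4-like receptor CD180) was lower with LPS in both genotypes, at -0.92 ± 0.22 (edgeR adjusted p = 0.0436) and -1.37 ± 0.21 (adjusted p = 0.00706), the direction opposite to that of Ly96. Cd180 itself (-0.69 ± 0.18, edgeR adjusted p = 0.0400) and Hsp90b1 (gp96, a chaperone of Toll-like receptors, -0.65 ± 0.18, adjusted p = 0.0429) were lower with LPS than without it in cKO BMDCs. CD180 and MD-1 are abundant in B cells, and the summed B cell markers were 31.0, 94.9 and 1.03 CPM without and 8.70, 21.1 and 2.55 CPM with LPS in CD18fl/fl, and 110, 137 and 0.637 CPM and 18.6, 41.1 and 1.55 CPM in cKO. The part of B cells in this was not tested.

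In the TRIF arm, the MyD88-independent branch below TLR4, Tbk1 rose in both genotypes (0.99 ± 0.21, edgeR adjusted p = 0.0329, and 0.88 ± 0.18, adjusted p = 0.0156). Ticam2, which bridges TLR4 to TRIF, rose in CD18fl/fl (1.03 ± 0.22, adjusted p = 0.0361), and Ticam1 (TRIF) and Traf3 rose in cKO BMDCs (1.00 ± 0.25 and 1.27 ± 0.30, edgeR adjusted p = 0.0344 and 0.0275). Of the inhibitors of MyD88 signaling, Tnfaip3 (A20) rose in both (1.61 ± 0.33 and 1.83 ± 0.27, edgeR adjusted p = 0.0309 and 0.00569), and Socs1 rose in cKO (1.11 ± 0.24, adjusted p = 0.0221). Of the kinases and ubiquitin enzymes below TRAF6, Map3k8 (TPL2) rose by 1.77 ± 0.43 and Peli2 fell by 1.39 ± 0.29 in CD18fl/fl (edgeR adjusted p = 0.0474 and 0.0334). All of these values are from the fit with the block. In cKO BMDCs this fit also called 2 genes of the last list higher and 1 lower with LPS, which the rule for naming left out. Of the TRIF arm it called 4 higher in cKO, not all of which are named. For the interaction, edgeR called 0 of 65 other pathway genes with or without the block. Naming for 1 genotype alone therefore does not show a different response. Without the block Il18rap, a chain of the MyD88-using IL-18 receptor, fell by 2.82 ± 0.28 in CD18fl/fl and by 2.72 ± 0.50 in cKO BMDCs on the log2 scale (edgeR adjusted p = 0.0127 and 0.0373). Transcripts known to follow LPS responded in the libraries, with 5 of 14 higher in CD18fl/fl and 8 of 13 in cKO without the block and 10 and 11 with it. Those with the largest changes were Ptgs2, Il6 and Il1b in CD18fl/fl and Ptgs2, Il6 and Il12b in cKO. Il6, for example, went from 5.21 ± 5.27 to 344 ± 34.7 CPM in CD18fl/fl and from 6.21 ± 0.453 to 562 ± 224 CPM in cKO.

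Between the genotypes, the block gave 3 higher and 12 lower of 65 other pathway genes in untreated BMDCs, or 4.62% and 18.5%, beside 12.1% and 8.16% of all genes. After LPS it gave 3 higher and 3 lower of 63, 4.76% each, beside 6.98% and 3.16% of all genes, and without the block edgeR called 0 in either state. At an unadjusted p under 0.05 without the block, 3 were higher and 7 lower in untreated BMDCs, beside 1395 and 764 of all 12876 genes. In LPS-treated BMDCs 4 were higher and 3 lower at that level, beside 770 and 442 of all 12441 genes. DESeq2 without the block called 2 higher and 1 lower of 67 in untreated and 1 higher and 1 lower in LPS-treated BMDCs. The log2 fold changes with the block had medians of -0.27 and -0.28, beside -0.39 and -0.36 for the 9 genes and -0.07 and -0.09 over all genes. Ube2n, which encodes a ubiquitin-conjugating enzyme that works with TRAF6, and Ube2v2, which encodes one of the partners of that enzyme, were higher in cKO (1.16 ± 0.14 and 1.39 ± 0.14 in untreated, 0.73 ± 0.18 and 1.60 ± 0.17 in LPS-treated BMDCs, edgeR adjusted p = 0.00318, 0.00298, 0.0491 and 0.00641). Traf6 was lower in all same-numbered pairs, as given above. In untreated BMDCs Tlr2, Tlr7 and Tlr13 were lower in cKO (-0.80 ± 0.20, -0.97 ± 0.20 and -0.76 ± 0.19, edgeR adjusted p = 0.0296, 0.0159 and 0.0286), as was Ikbkg (NEMO, the regulatory subunit of the IκB kinase complex, -0.51 ± 0.15, adjusted p = 0.0479). After LPS, Tlr1 and Tlr6, which pair with TLR2, were lower (-0.76 ± 0.17 and -1.24 ± 0.18, edgeR adjusted p = 0.0383 and 0.0104). The largest difference among these genes was that of Wdfy1, listed with the TRIF arm, with log2 fold changes in cKO of -2.37 ± 0.24 in untreated and -2.64 ± 0.20 in LPS-treated BMDCs (edgeR adjusted p = 0.00298 and 0.00641). The study itself reported lower Wdfy1 from these same libraries. Because the lists were chosen with earlier results known, its place among the genes called is not independent support.

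In untreated BMDCs, the inhibitors Tnfaip3 and Usp4 were also lower in cKO (-0.60 ± 0.14 and -0.74 ± 0.20, edgeR adjusted p = 0.0256 and 0.0374), as were Cnpy3, a chaperone of Toll-like receptors (-0.57 ± 0.14, adjusted p = 0.0317), Ripk1 and Ikbke of the TRIF arm (-0.73 ± 0.14 and -0.67 ± 0.17, edgeR adjusted p = 0.0149 and 0.0341), Tab2 (-0.54 ± 0.15, adjusted p = 0.0407) and Pik3ap1 (-0.90 ± 0.19, adjusted p = 0.0199). Il18r1 was higher (0.89 ± 0.16, edgeR adjusted p = 0.0117), and after LPS Ecsit, a TRAF6-binding protein, was higher (0.91 ± 0.18, adjusted p = 0.0242). Of the LPS response transcripts, Cd86 was higher in cKO in both states (1.11 ± 0.15 and 1.33 ± 0.13, edgeR adjusted p = 0.00437 and 0.00641). Il1b was higher in untreated cKO BMDCs (0.78 ± 0.19, edgeR adjusted p = 0.0282), and Ptgs2 and Ccl5 were lower after LPS (-0.85 ± 0.17 and -0.62 ± 0.14, adjusted p = 0.0273 and 0.0336).

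For each of the 9 genes, the genes with the most similar pattern of log2 CPM over the 12 libraries were sought among 7255 genes. The libraries share genotype, treatment and replicate effects, so these correlations are a description only. Ly96 was most like Ints12 and Nbn (Pearson's r = 0.985 and 0.982), Irak2 like Gatad2b and Gramd1a (0.963 and 0.955), Irak3 like Susd6 and Clcn7 (0.963 and 0.951), and Irak4 like Grk6 and Lima1 (both 0.959). Traf6 was most like Synj1 and Nfkbie (0.959 and 0.954), the latter encoding the NF-κB inhibitor IκBε, and Irak1 like Dhx38 and Slc44a2 (0.952 and 0.949). Cd14 was most like Exoc3l4 and Adora2a (0.947 and 0.942), and Tirap like Taok2 and Prpf8 (0.915 and 0.911). Myd88 had the lowest values of the 9, with Gpbp1l1 and Supt20 (0.849 and 0.843).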

How the data were processed

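RNA-seq libraries of MHCII+ BMDCs were compared in 4 groups of 3, taken from the labels. According to the study's methods, the authors mapped single reads to GRCm39 in CLC Genomics Workbench, whereas the submitters' processing notes name GRCm38. The authors deposited raw counts per gene, as total and as unique gene reads, without normalization, and the other deposited columns give exon length and reads in exons and introns. Total gene reads were used (95.1% to 96.2% unique), 29689149 to 34037178 per library.

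Genes passing edgeR's filter (minimum count 10) were tested on the 6 libraries of a comparison (the interaction on all 12) by edgeR's quasi-likelihood F test (edgeR 4.0.16, R 4.3.3, TMM scaling). The p-values of all genes tested were adjusted by the Benjamini-Hochberg method, with a threshold of 0.05. SEs were derived from the F statistic, whose square root is the ratio of a log2 fold change to its SE. CPM were normalized over all 12 libraries. Fold changes for LPS give LPS relative to untreated, and those for genotype give cKO relative to CD18fl/fl.

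The replicate numbers come from the library labels. Deviations from the group means of same-numbered libraries correlated at 0.261 to 0.743 in every pair of every comparison, so the number was also used as a block. It is not stated whether such libraries were cultured or prepared together. The procedures were tested on simulated data.

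All 9 genes, Itgb2 and Tlr4 were named. Of 6 other lists, up to 3 genes per direction and comparison were named, those with the largest change among the genes called (with the block where the fit without it called none of a list) and a mean of at least 10 CPM in 1 group. For each of the 9 genes the 2 most similar ones at that mean level were named. Adgre1, the marker lists' genes and the ratios between genes were picked after their values were known. The members and lists were chosen with earlier results of these data known. Alternatives were DESeq2 1.42.0, all 12 libraries in 1 fit, RLE and library size scaling, other filters, unique reads, the block with an offset for exon length (lowess, span 0.3) and each library left out. Replicates 1 and 2 alone, and DESeq2 and library size scaling with the block, were chosen after seeing the data. Promoter sequences are from RefSeq (GRCm38.p6), and gene positions and exon lengths are those in the deposited files. Exonic bases shared with neighbours are from the GENCODE annotation of GRCm39. Its exons of Myd88, Irak4 and Irak3 (3888, 6299 and 5661 bases) are longer than those in the deposited files (2027, 4759 and 3271 bases).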

Additional observations from a re-analysis of the deposited data

How the results depend on the processing

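The number of the 9 genes called with LPS in CD18fl/fl was 0 in the edgeR fit reported, 2 with DESeq2, 1 with all 12 libraries in 1 fit, 1 with no filter on low counts, 2 with the replicate block, 3 with the block and the length offset, 7 in replicates 1 and 2 alone, 6 with DESeq2 and the block and 1 with library size scaling and the block. In cKO it was 0, against 3 with DESeq2, 2 with all 12 libraries, 1 with library size scaling, 4 with the block, 3 with the length offset, 2 in replicates 1 and 2 alone, 4 with DESeq2 and the block and 3 with library size scaling and the block. Between untreated genotypes it was 0, against 3 with the block, 2 with the length offset, 1 in replicates 1 and 2 alone, 3 with DESeq2 and the block and 4 with library size scaling and the block, and between LPS-treated genotypes 0, against 2, 1 and, for the last pair, 2 and 4. With library size scaling and the block, 701 genes were higher and 3882 lower of all 12876 between untreated genotypes. Between LPS-treated genotypes, 590 were higher and 2052 lower of all 12441. The median log2 fold changes over all genes were -0.46 and -0.34 in these 2 fits. Totals over all genes for the other fits are in the next paragraph. Leaving out 1 library at a time gave 0 to 1 of the 9 in both LPS comparisons and 0 in the others, with Ly96 called without LPS replicate 3 of either genotype.

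The genes called among all tested numbered 496 for LPS in CD18fl/fl, against 1794 with DESeq2, 1068 with all 12 libraries, 1627 with the replicate block, 1819 with the length offset, 6140 in replicates 1 and 2 alone, 3131 with DESeq2 and the block and 1621 with library size scaling and the block. For LPS in cKO they numbered 506, against 1531, 983, 2560, 2543, 2049, 3377 and 2748 in the same order, and 805 with no filter. Between untreated genotypes 0 became 538, 19, 2606, 1554, 1383, 3036 and 4583, and between LPS-treated genotypes 0 became 150, 45, 1262, 892, 523, 1869 and 2642, and 1 with no filter. For the interaction 0 became 1 with DESeq2 and 130 with DESeq2 and the block. Leaving out 1 library gave 0 to 3268, 0 to 1033, 0, 0 to 1 and 0 genes. In CD18fl/fl with LPS, no gene was called without any 1 of the replicates 1 and 2, and 3268 were called without LPS replicate 3. In cKO, 0 to 26 were called without any 1 of the replicates 1 and 2, and 1033 without LPS replicate 3. The cause of these differences was not tested.

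Library size scaling shifted all genes, whose median log2 fold change became -0.32, -0.23, -0.44 and -0.37 in the 4 comparisons and it turned the split of calls with LPS from 263 higher and 233 lower to 143 and 304 in CD18fl/fl, and from 283 and 223 to 186 and 300 in cKO. Under it, and under it with the block, signs turned for Myd88 with LPS in cKO (-0.15 and -0.14) and, between untreated genotypes, for Cd14 (-0.24 and -0.29), Myd88 (-0.32 and -0.33) and Irak4 (-0.25 and -0.23). With the block it also turned Ly96 between LPS-treated genotypes (-0.011) and the interactions of Tirap (0.18) and Tlr4 (0.23). The length offset turned Cd14 (-0.22), Ly96 (-0.34) and Myd88 (-0.12) between untreated and Ly96 (-0.41), Irak4 (0.015) and Tlr4 (0.19) between LPS-treated genotypes, and the interaction of Tlr4 (0.058). The block alone turned the interactions of Tirap (0.10) and Tlr4 (0.18), and DESeq2 with the block those of Tirap (0.034) and Tlr4 (0.13) and Tlr4 between LPS-treated genotypes (0.034). Replicates 1 and 2 alone turned Myd88 with LPS in cKO (-0.024), Cd14 (0.28) and Tlr4 (0.47) between LPS-treated genotypes and the interactions of Cd14 (0.066), Tirap (0.56), Irak3 (0.33) and Tlr4 (0.68).

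Log2 fold changes that changed sign when 1 library was left out ranged from -2.44 to 0.58 for Tlr4 with LPS in CD18fl/fl. With LPS in cKO they ranged from -1.59 to 0.24 for Tlr4, -0.34 to 0.28 for Irak1 and -0.074 to 0.22 for Myd88. Between untreated genotypes they ranged from -0.24 to 0.60 for Cd14, -0.12 to 0.27 for Myd88, -0.11 to 0.40 for Irak4 and -0.91 to 0.34 for Tlr4, and between LPS-treated genotypes from -0.64 to 0.14 for Cd14, -0.10 to 0.61 for Ly96 and -1.83 to 1.70 for Tlr4. The interactions ranged from -0.63 to 0.20 for Ly96, -0.34 to 0.44 for Tirap, -0.59 to 0.038 for Irak2, -0.43 to 0.14 for Irak3, -0.58 to 0.046 for Irak4, -0.43 to 0.023 for Traf6 and -1.32 to 2.07 for Tlr4. Irak2 and Irak3 kept their direction in both genotype comparisons, and Cd14, Ly96, Irak2, Irak3, Irak4 and Traf6 theirs with LPS, under all alternatives. Tirap, at 52 to 203 reads a library, was the gene most limited by depth. Of the edgeR fits run, those that called any of the 9 genes between the genotypes had the replicate block or left out replicate 3 of both groups.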
